A study of Mus musculus with 15 samples.

Results

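Foxl2 siRNA was compared directly with Esr2 siRNA at 30 h after transfection, in primary mouse ovarian granulosa cells, to find the genes whose RNA level differed between the knockdowns and the genes that belonged to each of them. The comparison used 6 of the 15 libraries of the series, 3 per knockdown, and all 24490 genes without the ERCC spike-in rows, of which 14907 had enough counts to be tested. The 3 scrambled siRNA libraries at 30 h placed each gene relative to the control, and Foxl2 siRNA and scrambled siRNA libraries at 54 h gave values from libraries outside the contrast, though within the same fit. All cells came from 8-week-old RjOrl:SWISS females and received 30 pmol of siRNA by lipofection, the control cells with a scrambled siRNA. The siRNAs came as mixtures of 3, of which 4 are named for each target. Identical catalogue numbers are listed under both targets. Which mixture went into which library is not known here. Nor is it stated if replicate libraries are independent cultures or animals, so p-values measure the spread between libraries, which may be technical. The times are those of the sample titles, since the extraction protocol mentions 30 h alone.

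FOXL2, a transcription factor of the forkhead family, maintains the ovarian identity of granulosa cells, partly by holding down genes of the testicular Sertoli cell such as Sox9, and it is required for genes such as Cyp19a1 and Fst. ESR2 is oestrogen receptor beta, a ligand-activated nuclear receptor and the main oestrogen receptor of granulosa cells, where it takes part in follicle growth and in the response to gonadotropins. Oestradiol is itself made in these cells by aromatase, the product of Cyp19a1, so the transcription factor and the receptor act within 1 network.

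Gene counts in the 6 libraries compared ranged from 50.7 M to 58.1 M, and levels are given as CPM, counts scaled to library size with TMM factors. A count of 0 allows a level of up to 3 counts, or 0.0516 to 0.0592 CPM in these libraries, for counting error only. In the 9 libraries at 30 h, principal component 1 held 39.0% of the variance and set the Foxl2 siRNA libraries (scores 44.9, 45.1 and 19.5) apart from all others (-21.8 to -14.4), with Foxl2 siRNA replicate 3 the least displaced. Component 2, with 22.4%, followed no group. Scrambled replicate 1 (24.6), Esr2 siRNA replicate 2 (31.6) and Foxl2 siRNA replicate 1 (25.3) lay at its upper end, and the other libraries between -24.1 and -0.907. The summed level of 31 granulosa identity genes, tested or not, was 6751 to 7154 CPM with scrambled siRNA, 5098 to 6607 CPM with Foxl2 siRNA and 5427 to 5671 CPM with Esr2 siRNA. Leukocyte markers summed to at most 8.96 CPM and erythroid markers to at most 0.827 CPM, with 7 of 10 erythroid markers at 0 in all 9 libraries. Markers of the ovarian surface epithelium summed to 7981 to 8374 CPM with Foxl2 siRNA, 5109 to 5610 CPM with Esr2 siRNA and 5228 to 5504 CPM with scrambled siRNA. Most of it came from Aldh1a1. In these bulk samples, fewer cells of a type and less RNA per cell cannot be told apart. Endothelial markers summed to 24.9 to 37.6 CPM with Foxl2 siRNA and 13.6 to 27.7 CPM with Esr2 siRNA. Smooth muscle and pericyte markers overlapped between the groups, at 850 to 1606 CPM with Foxl2 siRNA, 915 to 1535 CPM with Esr2 siRNA and 1143 to 1812 CPM with scrambled siRNA. Theca and stroma markers, a list that also holds Aldh1a1 and Star, summed to 8052 to 8721 CPM, 5555 to 5828 CPM and 5243 to 5886 CPM in the same order.

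Both siRNAs lowered their own target, and the Foxl2 siRNA libraries also held less Esr2 RNA than the controls. Foxl2 (mm10 chromosome 9, 98955288 to 98958543, plus strand, ENSMUSG00000050397.4) stood at 33.8, 28.4 and 65.4 CPM with Foxl2 siRNA, at 112, 128 and 114 CPM with Esr2 siRNA and at 174, 152 and 143 CPM with scrambled siRNA. All Esr2 siRNA libraries lay between the other groups. The log2 difference between the knockdowns was -1.47 ± 0.30 (standard error, n = 3 per group, edgeR adjusted p = 0.00435). The Esr2 gene, on the minus strand of chromosome 12 from 76120419 to 76177259, stood at 12.9, 14.5 and 13.9 CPM with Esr2 siRNA, at 29.2, 25 and 45.5 CPM with Foxl2 siRNA and at 60.6, 60.4 and 61.6 CPM with scrambled siRNA. The knockdowns did not overlap, and Esr2 was higher with Foxl2 siRNA by a log2 change of 1.27 ± 0.35 (edgeR adjusted p = 0.0203). Leaving out a single library could end the call: edgeR adjusted p was 0.077 without Esr2 siRNA replicate 1 and, for the others concerned, Esr2 siRNA replicate 3 (0.0609) and Foxl2 siRNA replicate 3 (0.0656). The log2 change of Esr2 with Foxl2 siRNA against scrambled was -0.87 at 30 h (edgeR adjusted p = 0.109) and -1.31 at 54 h (edgeR adjusted p = 0.00854). The contrast therefore sets cells with little Foxl2 and reduced Esr2 against cells with little Esr2 and most of their Foxl2.

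**Figure D1:**
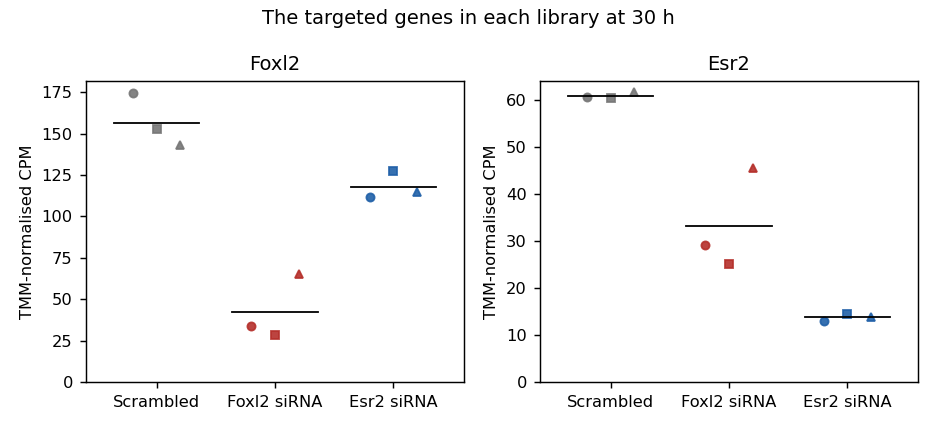
TMM-normalised CPM of Foxl2 (left) and Esr2 (right) in each library at 30 h; circles, squares and triangles are replicates 1, 2 and 3 and lines are group means. Foxl2 was lowest with Foxl2 siRNA (28.4 to 65.4 CPM) and Esr2 lowest with Esr2 siRNA (12.9 to 14.5 CPM), with Esr2 at 25 to 45.5 CPM after Foxl2 siRNA.

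Between the knockdowns, 3042 of 14907 genes differed at an adjusted p under 0.05 (20.4%), 1649 of them higher (11.1%) and 1393 lower (9.34%) with Foxl2 siRNA than with Esr2 siRNA. Of these, 415 were higher and 258 lower by at least 2-fold, and the median log2 difference over all genes tested was -0.00318. Against the shared scrambled libraries, Foxl2 siRNA changed 1936 genes (13.0%), 945 higher (6.34%) and 991 lower (6.65%), and Esr2 siRNA 631 (4.23%), 168 higher (1.13%) and 463 lower (3.11%). The genes that differed fell into 5 classes by their calls against scrambled siRNA. On the Foxl2 side stood 1223 genes that changed with Foxl2 siRNA and were not called with Esr2 siRNA, 613 higher and 610 lower. On the Esr2 side stood 334 genes that changed with Esr2 siRNA and were not called with Foxl2 siRNA, 257 of them lowered and 77 raised by Esr2 siRNA. A further 64 genes moved in opposite directions, 24 moved in the same direction by unequal amounts, and 1397 differed between the knockdowns without a call against scrambled in either. The classes moved with single libraries: the Foxl2 side held 687 genes when scrambled replicate 3 was left out and 1917 without Foxl2 siRNA replicate 3. The Esr2 side held 134 without Esr2 siRNA replicate 1 and 611 without Esr2 siRNA replicate 2. All differing genes together numbered 1767 without Esr2 siRNA replicate 1 and 1998 without Esr2 siRNA replicate 3.

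**Figure D2:**
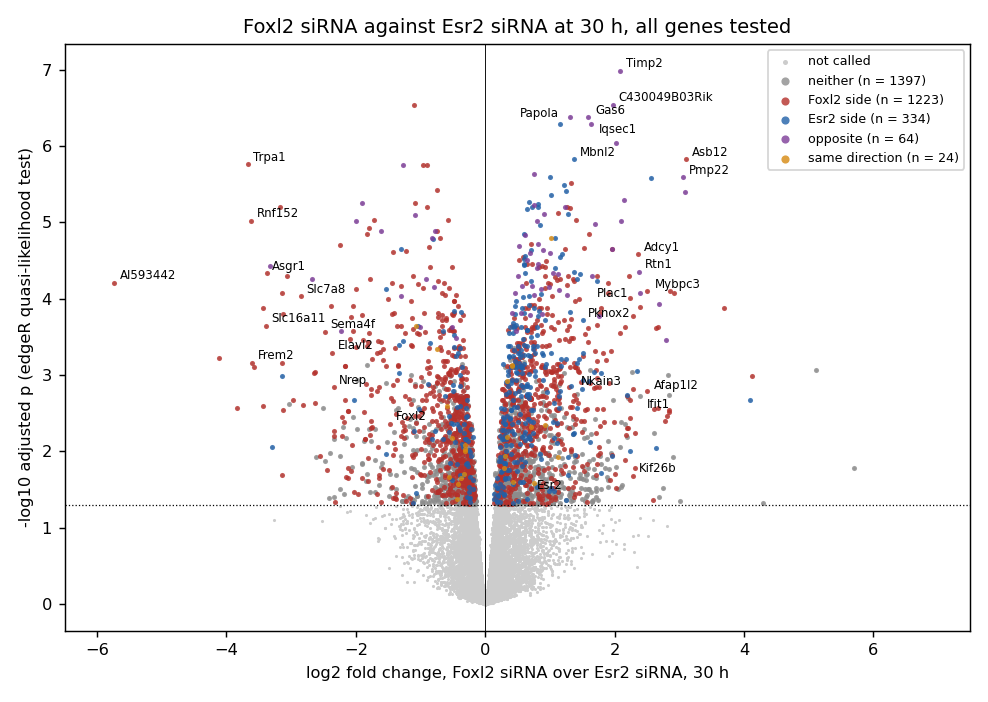
Log2 fold change of Foxl2 siRNA over Esr2 siRNA at 30 h (x axis) against -log10 of the edgeR adjusted p (y axis) for all 14907 genes; colours give the class of each gene by its calls against scrambled siRNA and the dotted line is an adjusted p of 0.05. Points to the right are higher with Foxl2 siRNA (1649 genes) and points to the left lower (1393 genes), with Timp2 at the top and AI593442 farthest left among the labelled genes.

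The libraries at 54 h are separate from those compared, but they entered the same fit and so helped to set the dispersion behind the calls at 30 h. Foxl2 siRNA against scrambled at 54 h called 1173 of the 1223 Foxl2 side genes (95.9%) in the direction of the 30 h contrast and 0 in the other direction, beside 38.8% of all genes called at 54 h in either direction (18.5% higher and 20.3% lower). Of the 334 Esr2 side genes it called 75 (22.5%) in the direction of the contrast and 51 (15.3%) in the other. Of the 64 opposite genes it called 60 (93.8%) in the same direction. Of the 1397 genes called against neither control comparison, 743 (53.2%) were called at 54 h in the direction of the 30 h contrast and 6 in the other. In 1348 of those 1397 genes (96.5%) the fitted scrambled level lay between the knockdowns, which the choice of the class largely fixes, with a median absolute log2 change of 0.40 between the knockdowns and of 0.21 and 0.20 for Foxl2 siRNA and Esr2 siRNA against scrambled.

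Among the ovarian genes chosen for their known ties to FOXL2 or ESR2, Sox8, Wt1 and Gata4 were higher with Foxl2 siRNA, while Sox9, Runx1 and Nr5a1 were not called. Sox8, a SOX factor of the Sertoli lineage, stood at 34.8, 20.7 and 21.8 CPM with Foxl2 siRNA and at 11.9, 14.2 and 11.4 CPM with Esr2 siRNA, against 9.00, 8.84 and 9.15 CPM with scrambled siRNA. The groups did not overlap, with a log2 difference of 1.04 ± 0.18 (edgeR adjusted p = 0.00138). Sox9, the factor that drives Sertoli cell fate, stood at 44.3, 33.1 and 16.9 CPM with Foxl2 siRNA and at 18.2, 15.9 and 16.8 CPM with Esr2 siRNA, against 10.2, 8.69 and 9.47 CPM with scrambled siRNA. Foxl2 siRNA replicate 3 fell within the Esr2 siRNA range, and the log2 difference of 0.89 ± 0.37 did not pass (edgeR adjusted p = 0.11). Every Esr2 siRNA library lay above every scrambled library for both genes, without a call (edgeR adjusted p = 0.183 for Sox8 and 0.27 for Sox9). Wt1, a zinc-finger regulator of gonadal somatic cells, was higher with Foxl2 siRNA at 234, 179 and 155 CPM against 90.3, 118 and 88.6 CPM (log2 0.93 ± 0.16, edgeR adjusted p = 0.00151). Gata4, which cooperates with it, was higher at 822, 728 and 831 CPM against 473, 517 and 470 CPM (log2 0.71 ± 0.09, edgeR adjusted p = 0.000252). Emx2, a homeobox gene of the early gonad, was not in that choice and was named for its small adjusted p among the granulosa identity genes. It was higher by a log2 change of 0.61 ± 0.08 (edgeR adjusted p = 0.000178).

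Fst, Cyp19a1 and Grem1, of the same panel, were lower with Foxl2 siRNA than with Esr2 siRNA, with calls that rested on few libraries. Fst, the activin-binding follistatin, stood at 6.21, 10.1 and 19.2 CPM with Foxl2 siRNA, 26.4, 31.5 and 35.3 CPM with Esr2 siRNA and 45.5, 71.8 and 62.8 CPM with scrambled siRNA. No groups overlapped, and the log2 difference between the knockdowns was -1.39 ± 0.44 (edgeR adjusted p = 0.0411). Cyp19a1 stood at 0.0404, 0.178 and 0.965 CPM with Foxl2 siRNA, 1.76, 1.02 and 1.89 CPM with Esr2 siRNA and 2.41, 3.33 and 2.83 CPM with scrambled siRNA. It differed by a log2 change of -1.97 ± 0.61 (edgeR adjusted p = 0.0365), with the nearest libraries, Foxl2 siRNA replicate 3 and Esr2 siRNA replicate 2, close together. Grem1, a BMP antagonist, differed by -2.33 ± 0.76 (edgeR adjusted p = 0.0456). Each of these 3 calls was lost in 6 alternatives, of 15 for Fst and Cyp19a1 and of 14 for Grem1, with edgeR adjusted p up to 0.136 for Fst, 0.159 for Cyp19a1 and 0.146 for Grem1. The calls of Fst and Grem1 were lost without any of the Esr2 siRNA libraries or without Foxl2 siRNA replicate 1 or 2, and that of Grem1 also with the replicate number as a block (edgeR adjusted p = 0.0525). The call of Cyp19a1 was lost without Esr2 siRNA replicate 1 or 3 or Foxl2 siRNA replicate 1 or 2. Hsd17b1, which converts oestrone to oestradiol, had a log2 difference of -1.15 ± 0.55 without a call (edgeR adjusted p = 0.159). Cyp11a1, the side-chain cleavage enzyme that starts steroid synthesis, was higher with Foxl2 siRNA at 4419, 4184 and 3572 CPM against 2646, 2515 and 2479 CPM (log2 0.67 ± 0.14, edgeR adjusted p = 0.00467).

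Other members of the panel did not pass, and intervals give an approximate range for each difference. For Nr5a1, the nuclear receptor SF-1 that controls steroidogenic genes, the log2 difference was 0.003 ± 0.055, with a 95% interval from the standard error of -0.11 to 0.11. For Inha, the alpha subunit of inhibin, the interval was -0.17 to 0.51, and for Runx1 -0.38 to 0.14. For Esr1, oestrogen receptor alpha, it was -0.38 to 0.53. Greb1, an oestrogen-induced gene in many tissues, stood at 295, 372 and 466 CPM with Foxl2 siRNA and 375, 260 and 479 CPM with Esr2 siRNA, below the 563, 721 and 650 CPM with scrambled siRNA in every library of both knockdowns. The difference between the knockdowns was 0.02 (interval -0.68 to 0.73), and neither knockdown was called against scrambled (edgeR adjusted p = 0.182 and 0.277). Pgr, the progesterone receptor, ranged from 1.68 to 8.76 CPM across the 9 libraries at 30 h, so that its interval of -1.26 to 1.46 leaves a large difference possible. Star, Hsd3b1, Inhba, Nr5a2, Wnt4, Amh, Fshr and Lhcgr were not called between the knockdowns, and Dmrt1 was at 0 in all 9 libraries at 30 h.

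The genes most raised with Foxl2 siRNA relative to Esr2 siRNA came mainly from the Foxl2 side, with additions from genes that Esr2 siRNA lowered. Asb12, an ankyrin and SOCS-box protein gene, led the list at 37.1, 32.9 and 27.3 CPM with Foxl2 siRNA against 2.92, 5.20 and 3.22 CPM with Esr2 siRNA and 4.95, 4.48 and 5.70 CPM with scrambled siRNA (log2 3.11 ± 0.20, edgeR adjusted p = 1.49e-06). All Foxl2 siRNA libraries lay above all others. Pmp22, which encodes a membrane protein of compact myelin also made outside nerve, stood at 50, 57.3 and 43.2 CPM with Foxl2 siRNA, 5.15, 5.71 and 7.22 CPM with Esr2 siRNA and 21.2, 30.6 and 27.6 CPM with scrambled siRNA. It moved up with Foxl2 siRNA and down with Esr2 siRNA, and the log2 difference was 3.06 ± 0.22 (edgeR adjusted p = 2.55e-06). Mybpc3, the cardiac myosin-binding protein C, was higher by a log2 change of 2.50 ± 0.29 (edgeR adjusted p = 7.95e-05) and Adcy1, an adenylate cyclase, by 2.37 ± 0.23 (edgeR adjusted p = 2.6e-05). Log2 differences were 2.50 for Afap1l2, 2.39 for Plac1 and for Ifit1, 2.38 for Rtn1 and 2.29 for Nkain3. Kif26b, a kinesin family gene, stood at 22.7, 21.6 and 4.04 CPM with Foxl2 siRNA against 3.33, 2.87 and 3.71 CPM with Esr2 siRNA. Its replicate 3 lay just above the Esr2 siRNA libraries, and its call (log2 2.29, edgeR adjusted p = 0.0208) was lost without any of the Esr2 siRNA libraries or without Foxl2 siRNA replicate 1 or 2, with p up to 0.0735.

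The genes most lowered with Foxl2 siRNA relative to Esr2 siRNA all belonged to the Foxl2 side. AI593442, a gene of unassigned function, stood at 0.0404, 0.198 and 0.394 CPM with Foxl2 siRNA against 9.28, 18.8 and 5.98 CPM with Esr2 siRNA and 6.42, 2.80 and 3.67 CPM with scrambled siRNA. The lowest Foxl2 siRNA library lay under the value of 3 counts, and the fitted log2 difference was -5.73 ± 0.63 (edgeR adjusted p = 6.17e-05). Trpa1, a cation channel that senses irritants, stood at 0.626, 0.277 and 0.531 CPM against 5.95, 7.00 and 5.39 CPM (log2 -3.67 ± 0.24, edgeR adjusted p = 1.73e-06). Rnf152, a ubiquitin ligase gene, stood at 2.24, 2.19 and 2.93 CPM against 25.4, 41.0 and 24.0 CPM (log2 -3.62 ± 0.31, edgeR adjusted p = 9.49e-06). Frem2, an extracellular matrix protein of epithelial basement membranes, was lower by a log2 change of -3.60 and Slc7a8, a neutral amino acid transporter, by -2.85. Sema4f, a semaphorin, was lower by -2.48, Elavl2, an RNA-binding protein of neurons and germ cells, by -2.37, and Nrep by -2.34. For Rnf152, Trpa1 and Frem2 every Esr2 siRNA library lay above every scrambled library, by log2 changes of 0.71, 0.51 and 0.59 that were not called (edgeR adjusted p = 0.182, 0.209 and 0.6). The log2 change of Sema4f with Esr2 siRNA was 1.06, also without a call (edgeR adjusted p = 0.087).

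Some of these genes were neighbours, a grouping chosen after their values were seen. On chromosome 11, Asgr1 (70054085 to 70057894, plus strand), Asgr2, Slc16a11 (70212752 to 70216417, plus strand) and Slc16a13 lie within 1 region. The first pair encodes subunits of the hepatic asialoglycoprotein receptor and the other pair encodes transporters of the monocarboxylate family. Slc16a11 stood at 5.65, 4.90 and 13.2 CPM with Foxl2 siRNA against 82.5, 81.8 and 83.5 CPM with Esr2 siRNA (log2 -3.38 ± 0.44, edgeR adjusted p = 0.000227). Slc16a13 stood at 16.1, 15.1 and 26.1 CPM against 63.0, 84.4 and 64.2 CPM (log2 -1.88 ± 0.26, edgeR adjusted p = 0.000349). Asgr1 was lower by a log2 change of -3.38 ± 0.36 and Asgr2 by -2.17 ± 0.40. All 16 tested genes from 100 kb before Asgr1 to 100 kb after Slc16a13 had a negative log2 difference, though that of Cldn7 was only -0.01 ± 0.44. Of these 16, 7 were called lower, Acadvl, Dlg4 and Dvl2 among them with log2 differences of -0.48, -0.36 and -0.41. The 7 include Asgr1, Asgr2, Slc16a11 and Slc16a13, for which the region was chosen, so the 9.34% of all genes is no fair comparison. The Dvl2 call was lost without Esr2 siRNA replicate 1 or 3 or Foxl2 siRNA replicate 2 (edgeR adjusted p up to 0.0693). On the X chromosome, C430049B03Rik, a noncoding transcript (53055046 to 53057190, minus strand) beside the Mir322 and Mir503 genes, and Plac1, a gene first known from placenta, both moved up with Foxl2 siRNA and down with Esr2 siRNA. C430049B03Rik stood at 155, 179 and 134 CPM with Foxl2 siRNA, 38.5, 38.4 and 42.0 CPM with Esr2 siRNA and 84.2, 96.9 and 87.0 CPM with scrambled siRNA (log2 1.98 ± 0.10, edgeR adjusted p = 2.89e-07). Its neighbours Phf6 and Fam122b were higher too, by log2 changes of 0.65 ± 0.09 and 0.89 ± 0.16. In that region, 4 of 6 tested genes were called higher and all 6 had a positive difference. The 4 include C430049B03Rik and Plac1, for which the region was chosen, so the 11.1% of all genes is no fair comparison. Neighbouring genes of like sign are not independent measurements where reads of 1 transcript run into the next, and the strand setting of the counts is not given in the sources used here.

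Esr2 siRNA lowered far more of its own class than it raised. Genes of this class were not called with Foxl2 siRNA, which does not show that Foxl2 siRNA left them unchanged. Mbnl2, a splicing regulator, stood at 144, 170 and 175 CPM with Esr2 siRNA, 402, 425 and 439 CPM with Foxl2 siRNA and 407, 482 and 466 CPM with scrambled siRNA. The Esr2 siRNA libraries were the lowest. The log2 difference between the knockdowns was 1.38 ± 0.09 (edgeR adjusted p = 1.49e-06). Pknox2, a homeobox gene, stood at 12.0, 12.1 and 13.0 CPM with Esr2 siRNA against 32.4, 30.5 and 42.5 CPM with Foxl2 siRNA (log2 1.5 ± 0.19, edgeR adjusted p = 0.000191). Bcar3, an adaptor first found through anti-oestrogen resistance, at 12.4, 9.33 and 12.7 CPM against 30.1, 30.5 and 34.5 CPM (log2 1.47 ± 0.16, edgeR adjusted p = 4.8e-05). Nppc encodes C-type natriuretic peptide, which granulosa cells make to hold the oocyte in meiotic arrest. It stood at 1.89, 1.07 and 2.10 CPM with Esr2 siRNA, 12.2, 5.69 and 6.10 CPM with Foxl2 siRNA and 6.76, 8.67 and 8.15 CPM with scrambled siRNA. Its log2 difference of 2.24 ± 0.53 had an edgeR adjusted p of 0.00997. Its receptor gene Npr2, chosen after its values were seen, was also lower with Esr2 siRNA than with Foxl2 siRNA (log2 0.31 ± 0.09, edgeR adjusted p = 0.0228, lost without Esr2 siRNA replicate 1 or Foxl2 siRNA replicate 2 with p up to 0.106).

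The rest of the genes lowered by Esr2 siRNA had varied roles. Bmp3, a BMP family member, stood at 3.44, 4.05 and 3.15 CPM with Esr2 siRNA against 10.8, 12.5 and 7.07 CPM with Foxl2 siRNA (log2 1.52 ± 0.25, edgeR adjusted p = 0.00115). At 54 h, Foxl2 siRNA lowered Bmp3 against scrambled by a log2 change of -1.41 (edgeR adjusted p = 0.00072). Ezr, which encodes ezrin, a linker between actin and the membrane, stood at 177, 465 and 218 CPM with Esr2 siRNA against 722, 635 and 881 CPM with Foxl2 siRNA (log2 1.38 ± 0.30, edgeR adjusted p = 0.00577). Esr2 siRNA replicate 2 was the highest of its group and still below all Foxl2 siRNA libraries. Tnnc1, troponin C of slow and cardiac muscle, Atp1b2, a sodium pump subunit, Cacna1a, a calcium channel, and Kcne1l, a potassium channel subunit, had log2 differences of 1.73, 1.41, 1.40 and 1.46. Atp1b2 stood at 117, 110 and 104 CPM with Foxl2 siRNA, above its 63.5, 88.9 and 84.8 CPM with scrambled siRNA without a call (edgeR adjusted p = 0.0533). Col16a1, a fibril-associated collagen, stood at 36.4, 36.8 and 45 CPM with Esr2 siRNA against 85.1, 112 and 89.9 CPM with Foxl2 siRNA (log2 1.28 ± 0.11, edgeR adjusted p = 7.74e-06).

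Fewer genes rose with Esr2 siRNA alone, and by smaller amounts. Kcna4, a potassium channel, stood at 14.2, 11.8 and 12.5 CPM with Esr2 siRNA, 3.63, 5.98 and 3.64 CPM with Foxl2 siRNA and 5.25, 5.96 and 5.53 CPM with scrambled siRNA (log2 difference -1.54 ± 0.17, edgeR adjusted p = 7.47e-05). Plcxd2 stood at 71.2, 79.2 and 58.9 CPM with Esr2 siRNA against 25.4, 28.9 and 30.7 CPM with Foxl2 siRNA (log2 -1.30 ± 0.12, edgeR adjusted p = 2.23e-05). Id2, an inhibitor of helix-loop-helix factors and a BMP target, stood at 96.1, 60.6 and 96.5 CPM with Esr2 siRNA against 42.7, 46.1 and 48.7 CPM with Foxl2 siRNA (log2 -0.88 ± 0.15, edgeR adjusted p = 0.00131). Again Esr2 siRNA replicate 2 lay closest to the other groups. Acvr1c, which encodes the nodal and activin receptor ALK7, stood at 4.09, 4.07 and 4.37 CPM with Esr2 siRNA against 1.33, 2.11 and 1.5 CPM with Foxl2 siRNA (log2 -1.34 ± 0.22, edgeR adjusted p = 0.000948). Tmtc1, Gal3st1, Gpr137c, Uchl1, Tnfaip6, Tbc1d9 and 9430037G07Rik had log2 differences between -1.33 and -0.78.

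**Figure D3:**
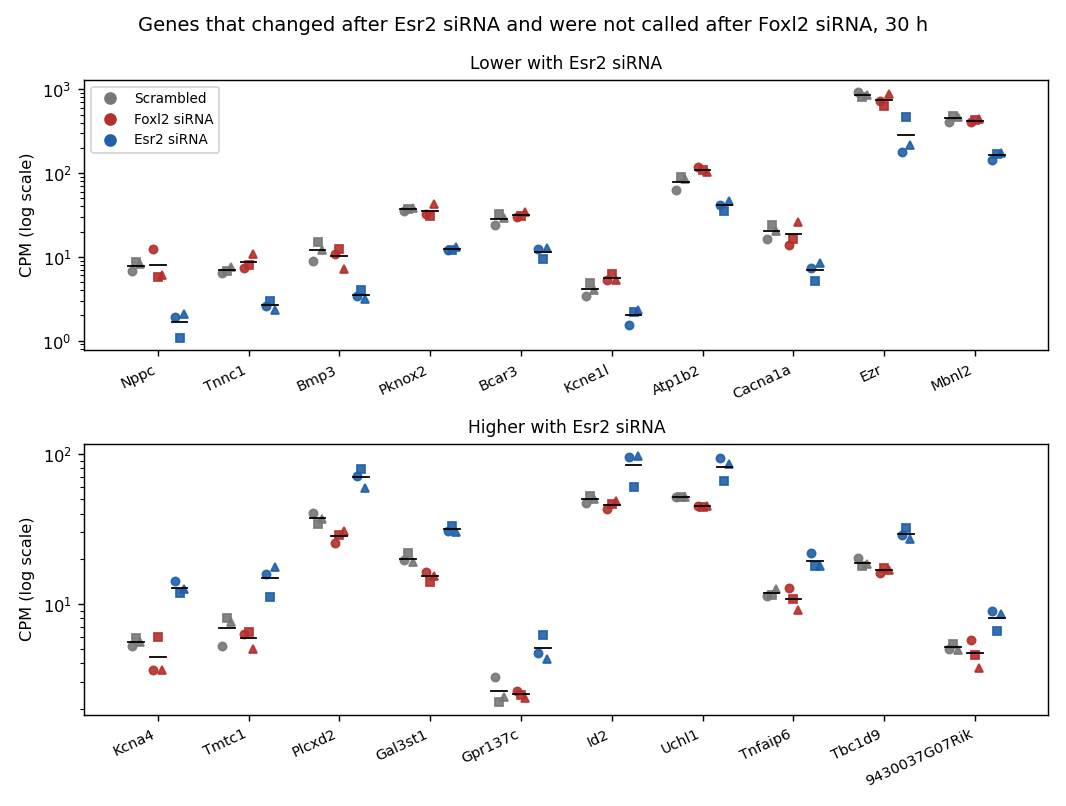
CPM on a log axis of the 20 named Esr2 side genes in each library at 30 h, 10 lower (top) and 10 higher (bottom) with Esr2 siRNA; circles, squares and triangles are replicates 1, 2 and 3 and lines are group means. In every gene shown the 3 Esr2 siRNA libraries lie apart from the 3 Foxl2 siRNA libraries, as the rule for naming them required.

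In 64 genes the knockdowns moved RNA in opposite directions from the control, 48 higher and 16 lower with Foxl2 siRNA than with Esr2 siRNA. Timp2, an inhibitor of matrix metalloproteinases, had the smallest adjusted p of the whole contrast among the named genes, at 511, 598 and 545 CPM with Foxl2 siRNA, 116, 128 and 144 CPM with Esr2 siRNA and 392, 448 and 427 CPM with scrambled siRNA (log2 2.09 ± 0.09, edgeR adjusted p = 1.03e-07). All 3 groups were separate. Gas6, a ligand of the TAM receptor kinases, stood at 1239, 1054 and 1083 CPM with Foxl2 siRNA against 336, 430 and 359 CPM with Esr2 siRNA (log2 1.59 ± 0.09, edgeR adjusted p = 4.2e-07). Papola, the poly(A) polymerase, and Iqsec1, an ARF exchange factor, had log2 differences of 1.31 and 1.64. Bik, a BH3-only cell death gene at low levels, stood at 1.66 CPM or more in every Foxl2 siRNA library and at 0.215, 0.372 and 0.277 CPM with Esr2 siRNA (log2 2.68 ± 0.32, edgeR adjusted p = 0.000118). In the other direction, Plat, the tissue plasminogen activator, stood at 73.9, 70.5 and 65.6 CPM with Foxl2 siRNA, 144, 156 and 147 CPM with Esr2 siRNA and 98, 97.9 and 96.9 CPM with scrambled siRNA (log2 -1.09 ± 0.09, edgeR adjusted p = 7.94e-06). Rerg, a RAS-like growth inhibitor regulated by oestrogen in breast cells, stood at 18.7, 16.9 and 17.1 CPM against 44.3, 43.2 and 40 CPM (log2 -1.27 ± 0.09, edgeR adjusted p = 1.75e-06).

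In 24 genes both knockdowns moved the same way, by amounts that differed. Tspan13, a tetraspanin, fell by a log2 change of -0.39 with Foxl2 siRNA and -1.40 with Esr2 siRNA against scrambled, at 12.7, 10.7 and 13.3 CPM, 6.23, 5.75 and 6.18 CPM and, in the control, 16.4, 15.3 and 16.3 CPM (edgeR adjusted p of the difference 1.58e-05). Arhgap28, a GTPase-activating protein, was at 32.2, 32.5 and 39.3 CPM with Foxl2 siRNA, 65.2, 90.8 and 62.7 CPM with Esr2 siRNA and 128, 106 and 117 CPM with scrambled siRNA (log2 difference -1.07 ± 0.14, edgeR adjusted p = 0.000229). Slco3a1, an organic anion transporter, followed the order of Arhgap28 (-0.75 ± 0.11), and Zfp503 and 1600012H06Rik that of Tspan13 (0.41 ± 0.06 each). Hey2, a Notch target and transcriptional repressor, was lower with Esr2 siRNA (4.26, 5.26 and 4.96 CPM) than with Foxl2 siRNA (10.7, 8.29 and 8.60 CPM) and lower in both than in the control (12.8, 14.7 and 15.1 CPM). Genes lowered about alike by both siRNAs were outside the calls of the contrast: Sc5d, a cholesterol synthesis enzyme chosen after its values were seen, stood at 137, 138 and 158 CPM, 126, 129 and 132 CPM and, in the control, 275, 244 and 261 CPM (log2 difference 0.17 ± 0.07, edgeR adjusted p = 0.131).

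Genes of the interferon response stood higher with Foxl2 siRNA than with Esr2 siRNA in most cases: 35 of 46 tested members were called higher (76.1%, beside 11.1% of all genes) and 0 lower (beside 9.34%). Their median log2 difference was 0.93, beside -0.00318 over all genes. These genes are switched on when interferons or cytosolic nucleic acid sensors activate a complex of STAT proteins and IRF9, which binds the interferon-stimulated response element upstream of its targets. Against scrambled siRNA, only Ifit2 was called higher with Foxl2 siRNA at 30 h and only Bst2, Psmb8 and Trim25 were called lower with Esr2 siRNA. The last 3 were named after their values were seen. At 54 h, 14 members were higher with Foxl2 siRNA than with scrambled siRNA and 0 lower, beside 18.5% and 20.3% of all genes. Stretches before the starts of 5 members are shown to let the shared motif be seen; GAAA, any 2 bases and again GAAA, searched on both strands after the differences were seen, is in capitals (on the other strand it reads TTTC, 2 bases, TTTC), and matches that overlap run together. The sequences are from the RefSeq promoter table for GRCm38.p6, 5' to 3' on the gene's strand, and cover the bases before the start that lie in no annotated exon.
Ifit1 (chr19:34640744-34640870, plus strand): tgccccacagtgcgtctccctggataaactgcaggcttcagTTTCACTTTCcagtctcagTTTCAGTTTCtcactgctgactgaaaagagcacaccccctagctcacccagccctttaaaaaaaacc
Ifit3 (chr19:34583279-34583528, plus strand): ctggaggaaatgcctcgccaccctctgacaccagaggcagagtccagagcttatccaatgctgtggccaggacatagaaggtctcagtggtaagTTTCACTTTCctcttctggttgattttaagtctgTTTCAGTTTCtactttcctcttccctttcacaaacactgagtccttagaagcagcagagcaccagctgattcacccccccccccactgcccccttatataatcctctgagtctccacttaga
Isg15 (chr4:156200819-156201068, minus strand): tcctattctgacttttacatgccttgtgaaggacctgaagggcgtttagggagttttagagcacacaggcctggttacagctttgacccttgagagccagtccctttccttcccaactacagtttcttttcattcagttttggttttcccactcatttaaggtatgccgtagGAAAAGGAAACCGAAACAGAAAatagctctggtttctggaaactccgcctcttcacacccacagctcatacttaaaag
Stat2 (chr10:128270248-128270497, plus strand): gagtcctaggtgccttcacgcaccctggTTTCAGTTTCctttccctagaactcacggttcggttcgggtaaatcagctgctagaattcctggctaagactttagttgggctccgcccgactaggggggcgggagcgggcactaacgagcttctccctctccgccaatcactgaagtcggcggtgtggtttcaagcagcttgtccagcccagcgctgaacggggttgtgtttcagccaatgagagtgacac
Rsad2 (chr12:26456453-26456702, minus strand): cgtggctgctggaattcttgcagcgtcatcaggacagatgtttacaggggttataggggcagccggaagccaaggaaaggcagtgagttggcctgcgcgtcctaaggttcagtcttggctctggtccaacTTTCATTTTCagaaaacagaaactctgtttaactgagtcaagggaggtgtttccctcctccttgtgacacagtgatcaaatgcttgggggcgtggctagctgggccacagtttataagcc

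The first letters of these matches lay 85 and 104 bases before the start in Ifit1, 122 and 156 in Ifit3, 66 to 78 in Isg15 with 3 overlapping matches, 222 in Stat2 and 120 in Rsad2. Over all interferon response genes with a window, 16 of 37 held at least 1 match within 250 bases before the start (43.2%), beside 373 of 11661 tested genes (3.20%) and 36 of 1280 genes called higher outside the list (2.81%). A match describes letters and was not tested as a binding site.

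The size of the interferon difference followed single libraries. Ifit1, an RNA-binding antiviral protein, stood at 15.4, 36.6 and 31.3 CPM with Foxl2 siRNA, 4.49, 8.97 and 2.48 CPM with Esr2 siRNA and 16.7, 15 and 15.1 CPM with scrambled siRNA. Foxl2 siRNA replicate 1 was at control level while replicates 2 and 3 were above it, and Esr2 siRNA replicate 2 lay closest to the control. The log2 difference was 2.39 ± 0.43 (edgeR adjusted p = 0.00186). Isg15, a ubiquitin-like modifier, stood at 21.9, 53.7 and 59.1 CPM with Foxl2 siRNA and 7.34, 22.6 and 5.94 CPM with Esr2 siRNA, so that the groups overlapped (log2 1.91 ± 0.50, edgeR adjusted p = 0.0172, lost in 4 of 15 alternatives with p up to 0.081). Stat2 stood at 42.6, 72.0 and 61.0 CPM against 30.2, 36.7 and 29.6 CPM (log2 0.86 ± 0.17, edgeR adjusted p = 0.00286). Ifit2 stood at 26.5, 27.9 and 24.4 CPM against 13.8, 17.5 and 13.0 CPM (log2 0.83 ± 0.14, edgeR adjusted p = 0.00114). Dtx3l, a ubiquitin ligase, was higher by 0.89 ± 0.17 (edgeR adjusted p = 0.00227). Ifit3 (log2 2.16) and Ifit3b (2.10) are near-identical copies whose reads the counting could split. The median of the 46 genes relative to the scrambled mean was -0.24, 0.48 and 0.44 in Foxl2 siRNA replicates 1 to 3 and -0.88, -0.27 and -0.94 in Esr2 siRNA replicates 1 to 3, on the log2(CPM + 0.1) scale. Their summed level was 2050, 2831 and 3014 CPM with Foxl2 siRNA and 1420, 2088 and 1389 CPM with Esr2 siRNA. In 23 of the 46 genes the groups did not overlap, beside 34.8% of all genes. The libraries nearest to each other, Foxl2 siRNA replicate 1 and Esr2 siRNA replicate 2, were also those at the upper end of principal component 2. The count of members called higher was 12 without Esr2 siRNA replicate 1 or 3 and 18 without Foxl2 siRNA replicate 2. With only the 6 libraries compared it was 11. What part the siRNA sequences or the transfection of single libraries had in this result was not tested.

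**Figure D4:**
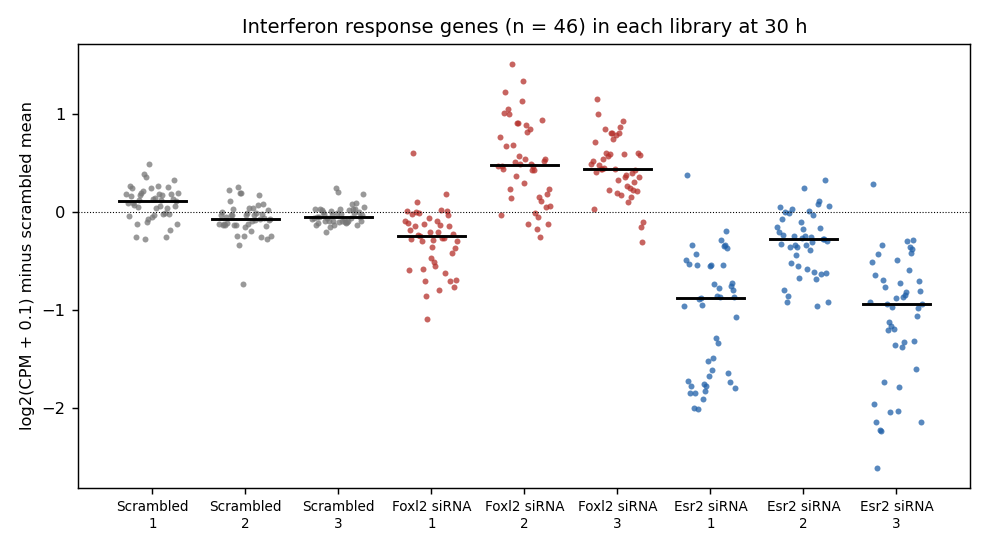
Log2(CPM + 0.1) of the 46 tested interferon response genes relative to their scrambled mean at 30 h (y axis) in each of 9 libraries (x axis); points are genes and bars are medians. Medians were 0.48 and 0.44 in Foxl2 siRNA replicates 2 and 3, -0.24 in replicate 1, and -0.88, -0.27 and -0.94 with Esr2 siRNA.

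Of 37 tested genes of ovulation and cumulus expansion, 13 were lower with Foxl2 siRNA than with Esr2 siRNA (35.1%, beside 9.34% of all genes) and 5 higher (13.5%, beside 11.1%), and 19 were not called, with a median log2 difference of -0.42. After the luteinizing hormone surge, these genes carry the signal from granulosa cells to the cumulus, through EGF-like ligands and prostaglandin E2. Btc, the EGF-like ligand betacellulin, stood at 2.44, 2.65 and 3.58 CPM with Foxl2 siRNA against 17.5, 13.2 and 10.2 CPM with Esr2 siRNA (log2 -2.24 ± 0.21, edgeR adjusted p = 1.99e-05). The other EGF-like ligands, Ereg and Areg, were lower too (-1.45 and -1.54), but Ereg was called against scrambled in neither knockdown. Areg was on the Esr2 side, raised by Esr2 siRNA against scrambled (log2 1.42, edgeR adjusted p = 0.0451). With Foxl2 siRNA it was not called (log2 -0.12, edgeR adjusted p = 0.884). The calls of Ereg and Areg between the knockdowns were lost in 4 of 15 and 2 of 14 alternatives. Both were lost without Esr2 siRNA replicate 3, and that of Ereg also without Esr2 siRNA replicate 1 or Foxl2 siRNA replicate 1. Of the prostaglandin genes, Ptger2, a receptor of prostaglandin E2, stood at 18.4, 17.1 and 24.0 CPM with Foxl2 siRNA against 75.3, 71.9 and 64.7 CPM with Esr2 siRNA and 67.4, 57.2 and 60.8 CPM with scrambled siRNA (log2 -1.83 ± 0.17, edgeR adjusted p = 1.41e-05). Ptgs2, the inducible cyclooxygenase, stood at 98, 130 and 108 CPM against 372, 492 and 302 CPM (log2 -1.79 ± 0.24, edgeR adjusted p = 0.000283). Ptger3, another receptor, was lower by -3.58 ± 0.56. Ptges, which makes prostaglandin E2 from the product of cyclooxygenase, went the other way, at 253, 260 and 257 CPM against 123, 107 and 123 CPM (log2 1.13 ± 0.09, edgeR adjusted p = 7.43e-06).

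Matrix genes of the expanding cumulus were split between the classes. Tnfaip6, which crosslinks hyaluronan, was raised by Esr2 siRNA (21.9, 17.9 and 17.9 CPM) and stood at 12.7, 10.7 and 9.13 CPM with Foxl2 siRNA (log2 -0.83 ± 0.18, edgeR adjusted p = 0.00686). Vcan, the proteoglycan versican, and Ptx3, a pentraxin, were lower by -1.08 ± 0.26 and -1.26 ± 0.29 without a call against scrambled in either knockdown. Rgs2, a regulator of G-protein signalling, stood at 3.31, 5.13 and 4.25 CPM against 18.3, 17.1 and 15.2 CPM (log2 -1.99 ± 0.23, edgeR adjusted p = 7.47e-05). Edn2, the endothelin made at ovulation, was higher with Foxl2 siRNA at 3.65, 4.40 and 1.42 CPM against 0.497, 0.469 and 0.346 CPM (log2 2.85 ± 0.55, edgeR adjusted p = 0.00286). So was Adamts1, a protease that cleaves versican, at 119, 155 and 109 CPM against 74.3, 63.8 and 72.5 CPM (log2 0.86 ± 0.13, edgeR adjusted p = 0.000776). The named genes of this list outside the 4 with the smallest adjusted p were chosen after their values were seen.

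Of 22 tested heart and skeletal muscle genes, 10 were called higher with Foxl2 siRNA (45.5%) and 0 lower, beside 11.1% and 9.34% of all genes, and 12 were not called, with a median log2 difference of 1.13. Ryr2, the calcium release channel of heart, stood at 17.3, 22.3 and 10.2 CPM with Foxl2 siRNA against 4.12, 4.11 and 5.20 CPM with Esr2 siRNA and 2.96, 3.88 and 3.39 CPM with scrambled siRNA (log2 1.89 ± 0.22, edgeR adjusted p = 8.33e-05). Ldb3, a Z-disc protein, stood at 29.0, 30.8 and 39.8 CPM against 11.1, 14.4 and 11.6 CPM (log2 1.43 ± 0.27, edgeR adjusted p = 0.00231). Nppb, a natriuretic peptide of heart, was higher by 1.77 ± 0.22. Most called members were on the Foxl2 side, whereas Tnnc1 and Atp2a2 were lowered by Esr2 siRNA; the Atp2a2 call between the knockdowns was lost without Esr2 siRNA replicate 1 (edgeR adjusted p = 0.091). Myh6 and Myh7, the cardiac myosin heavy chains, stayed at or below 0.605 CPM in every library at 30 h.

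Of 28 tested Sertoli and testis genes, 9 were higher (32.1%) and 1 lower (3.57%), and 18 were not called, with a median log2 difference of 0.66. Fgf18, a fibroblast growth factor, stood at 40.4, 36.0 and 36.3 CPM with Foxl2 siRNA against 15.3, 14.1 and 15.8 CPM with Esr2 siRNA (log2 1.32 ± 0.10, edgeR adjusted p = 3.05e-06). Cst9 had 0 counts in all 3 Esr2 siRNA libraries and a mean at least 2.18-fold higher with Foxl2 siRNA, taken against 3 counts per library. With Cst9 at that bound the median of the list stayed at 0.66. Vnn1, the lower member, lost its call in 6 of 15 alternatives (edgeR adjusted p up to 0.119), without any library except Foxl2 siRNA replicate 3. Of 18 tested surface epithelium markers, 9 were higher (50%, beside 11.1% of all genes) and 1 lower (5.56%, beside 9.34%), and 8 were not called, with a median of 0.69. By sign alone, 13 differences were positive and 5 negative. The epithelial markers Epcam (log2 -1.06, edgeR adjusted p = 0.0685) and Cdh1 (log2 -1.02, edgeR adjusted p = 0.155) were among the negative ones, without a call. The count of higher members was 5 without Esr2 siRNA replicate 1. Msln, mesothelin, stood at 29.8, 47.1 and 30.6 CPM against 12.8, 10.1 and 15.6 CPM (log2 1.48 ± 0.25, edgeR adjusted p = 0.00122). Bnc1, a zinc-finger gene of epithelia, stood at 12.8, 16.3 and 12.8 CPM against 3.84, 2.93 and 5.63 CPM (log2 1.76 ± 0.30, edgeR adjusted p = 0.00143). Aldh1a1, which makes retinoic acid, stood at 7614, 7487 and 7270 CPM against 4554, 5044 and 4650 CPM (log2 0.65 ± 0.09, edgeR adjusted p = 0.000273). Krt19 was the lower marker at 2.10, 1.94 and 1.91 CPM against 3.68, 3.11 and 3.07 CPM, with a call lost without any library except Esr2 siRNA replicate 2 (edgeR adjusted p up to 0.12). Wt1, Aldh1a1 and Rspo1 are also made by granulosa or stromal cells, and what part surface epithelium in the cultures had in the other lists was not tested.

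Of 51 tested integrin and focal adhesion genes, 15 were higher (29.4%, beside 11.1% of all genes) and 3 lower (5.88%, beside 9.34%), with a median log2 difference of 0.14. Zyx, the focal adhesion protein zyxin, stood at 540, 621 and 555 CPM with Foxl2 siRNA against 386, 433 and 392 CPM with Esr2 siRNA (log2 0.50 ± 0.08, edgeR adjusted p = 0.000606). Itga3, an integrin subunit for laminin, was lowered by Esr2 siRNA at 97.1, 124 and 106 CPM against 220, 182 and 205 CPM (log2 0.89 ± 0.13, edgeR adjusted p = 0.000538). Itga2, a collagen-binding integrin subunit, went the other way at 6.46, 13.6 and 13.4 CPM against 45.7, 54.8 and 49.7 CPM (log2 -2.16 ± 0.34, edgeR adjusted p = 0.000752). So did Itgb3 (-1.79) and Itgb5 (-0.62), named after their values were seen. Of 59 actomyosin genes, 15 were higher (25.4%) and 3 lower (5.08%), with a median of 0.13. Fscn1, the actin bundler fascin, and Actb, beta-actin, moved up with Foxl2 siRNA and down with Esr2 siRNA, with log2 differences of 0.72 ± 0.08 and 0.57 ± 0.06 (edgeR adjusted p = 6.72e-05 and 6.83e-05). Cdc42ep5, an effector of CDC42, was lower by -1.61 ± 0.23.

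Of 65 migration and guidance genes, 14 were higher (21.5%, beside 11.1% of all genes) and 8 lower (12.3%, near the 9.34% of all genes). The count of higher members was 9 without Esr2 siRNA replicate 1 and 9 without Foxl2 siRNA replicate 1. The count of lower members was 5 without either of these or without Esr2 siRNA replicate 3. Plxnb2, a semaphorin receptor, was lowered by Esr2 siRNA to 243, 252 and 279 CPM against 453, 485 and 417 CPM with Foxl2 siRNA (log2 0.81 ± 0.07, edgeR adjusted p = 6.21e-06). Its relative Plxna2 fell to 64.3, 72.2 and 80.8 CPM against 153, 170 and 136 CPM (log2 1.07 ± 0.11, edgeR adjusted p = 3.89e-05). Robo2, a receptor of SLIT ligands, was lowered by Foxl2 siRNA to 134, 130 and 168 CPM against 319, 425 and 317 CPM with Esr2 siRNA (log2 -1.30 ± 0.14, edgeR adjusted p = 6.72e-05). Robo4, its endothelial relative, was higher with Foxl2 siRNA at 12.1, 8.2 and 7.97 CPM against 1.61, 2.58 and 1.65 CPM (log2 2.28 ± 0.29, edgeR adjusted p = 0.000166). Of 11 tested endothelial markers only Robo4 and Esam were called (18.2% higher, beside 11.1% of all genes), and Esam not without Esr2 siRNA replicate 1 (edgeR adjusted p = 0.052). Of 49 cell-cell junction genes, 8 were higher (16.3%) and 2 lower (4.08%). Cdh2, N-cadherin, stood at 972, 976 and 1036 CPM against 570, 546 and 584 CPM (log2 0.81 ± 0.08, edgeR adjusted p = 1.93e-05). Cdh3, P-cadherin, was higher too (1.53 ± 0.15), and the protocadherin gene Pcdh18 lower (-1.78 ± 0.19). Of 61 proteases and inhibitors of invasion, 6 were higher and 4 lower, a share below that of all genes. Of 26 genes of the epithelial-mesenchymal transition, 3 were higher (11.5%, near the 11.1% of all genes) and 1 lower (3.85%, beside 9.34%). The lower count was 0 without any 1 of the libraries except Esr2 siRNA replicate 2.

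Matrix genes moved in both directions. Of 31 basement membrane genes, 5 were higher (16.1%, beside 11.1% of all genes) and 2 lower (6.45%, beside 9.34%). Papln, papilin, stood at 41.3, 42.9 and 31.0 CPM with Foxl2 siRNA, 9.67, 8.19 and 10.5 CPM with Esr2 siRNA and 20.7, 22.1 and 22.8 CPM with scrambled siRNA (log2 2.02 ± 0.12, edgeR adjusted p = 9.14e-07). Col4a5 and Col4a6, collagen IV chains encoded side by side, were higher by 0.64 ± 0.07 and 0.94 ± 0.09. Of 52 interstitial matrix genes, 8 were higher (15.4%) and 4 lower (7.69%). The higher members numbered 2 without Esr2 siRNA replicate 1 or Foxl2 siRNA replicate 2 and 5 without Esr2 siRNA replicate 2 or Foxl2 siRNA replicate 1. Spp1, osteopontin, was lowered by Foxl2 siRNA to 317, 258 and 266 CPM against 591, 977 and 586 CPM with Esr2 siRNA (log2 -1.36 ± 0.23, edgeR adjusted p = 0.00115). Col12a1 fell to 86.6, 170 and 127 CPM against 291, 310 and 333 CPM (log2 -1.28 ± 0.26, edgeR adjusted p = 0.00407).

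In the activin, TGF-beta and BMP list, 10 of 57 tested members were higher and 10 lower (17.5% each, beside 11.1% and 9.34% of all genes). The ligand Bmp3 and the inhibin beta B chain Inhbb were higher with Foxl2 siRNA than with Esr2 siRNA (1.52 and 1.10), the latter without a call against scrambled and with an edgeR adjusted p of 0.0506 when only the 6 libraries compared were fitted. Of the antagonists, Chrdl1 was at 0.444, 0.415 and 0.689 CPM with Foxl2 siRNA against 3.69, 3.75 and 6.24 CPM with Esr2 siRNA (log2 -3.14 ± 0.36, edgeR adjusted p = 8.4e-05). Fst and Grem1 were lower as well. The inhibitory Smad genes diverged, with Smad7 higher by 0.42 ± 0.05 (edgeR adjusted p = 0.000227) and Smad6 lower by -0.58 ± 0.09 (edgeR adjusted p = 0.000644). Without Esr2 siRNA replicate 1 or 3, 6 members were lower. Of 30 granulosa identity genes, 6 were higher and 6 lower (20% each). The lower count was 1 without Esr2 siRNA replicate 1, Esr2 siRNA replicate 3, Foxl2 siRNA replicate 1 or Foxl2 siRNA replicate 2, and 3 without Esr2 siRNA replicate 2.

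Of 47 Wnt and R-spondin genes, 9 were higher (19.1%, beside 11.1% of all genes) and 2 lower (4.26%, beside 9.34%), with 5 higher without Esr2 siRNA replicate 1 or Foxl2 siRNA replicate 1. Axin2, a feedback target of the pathway, stood at 68.5, 71.5 and 46.2 CPM with Foxl2 siRNA against 26.2, 35.0 and 24.3 CPM with Esr2 siRNA and 28.3, 22.5 and 23.8 CPM with scrambled siRNA (log2 1.12 ± 0.18, edgeR adjusted p = 0.00101). Rspo1, an R-spondin that raises Wnt signalling in the ovary, was at 0.726, 0.810 and 1.02 CPM against 0.166, 0.117 and 0.277 CPM (log2 2.17 ± 0.54, edgeR adjusted p = 0.0128, and 0.0571 without Esr2 siRNA replicate 1). Ryk, a Wnt receptor, was lowered by Esr2 siRNA to 83.7, 118 and 90.4 CPM against 175, 164 and 158 CPM (log2 0.77 ± 0.11, edgeR adjusted p = 0.000516). Of 27 Notch genes, 5 were higher (18.5%) and 0 lower, and 2 without Esr2 siRNA replicate 1, Esr2 siRNA replicate 3 or Foxl2 siRNA replicate 1 and 3 without Foxl2 siRNA replicate 2.

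Nuclear receptors and steroid genes showed no single direction. Of 33 steroid and orphan nuclear receptor genes, 7 were higher (21.2%, beside 11.1% of all genes) and 5 lower (15.2%, beside 9.34%). Nr1d2, a nuclear receptor of the clock, was lower at 17.9, 20.6 and 17.4 CPM with Foxl2 siRNA against 30.4, 28 and 30.1 CPM with Esr2 siRNA (log2 -0.67 ± 0.08, edgeR adjusted p = 8.41e-05). Pgrmc2, a progesterone receptor membrane component, and Rara, a retinoic acid receptor, were lowered by Esr2 siRNA and differed by 0.70 ± 0.10 and 0.46 ± 0.07. The higher count was 4 without Esr2 siRNA replicate 3, and the lower count was 2 without Esr2 siRNA replicate 1, 1 without Esr2 siRNA replicate 3 and 3 without Foxl2 siRNA replicate 1 or 2. Of 29 oestrogen-responsive genes, 3 were higher (Gata3, Rara and Ebag9) and 3 lower, a share of 20.7% beside 20.4% of all genes, and 1 was lower without Esr2 siRNA replicate 3. Of 26 genes of steroid synthesis and inactivation, 2 were higher and 2 lower (7.69% each, beside 11.1% and 9.34% of all genes). These counts were 1 to 2 and 1 to 4 without 1 library, the 4 without Foxl2 siRNA replicate 3. Of 38 cholesterol genes, 5 were higher (13.2%) and 1 lower (2.63%). Their higher count was 3 without Esr2 siRNA replicate 1 and 2 without Esr2 siRNA replicate 3 or Foxl2 siRNA replicate 2. Scap, the sterol sensor that escorts SREBP, was lowered by Esr2 siRNA to 544, 557 and 590 CPM against 787, 759 and 770 CPM (log2 0.45 ± 0.06, edgeR adjusted p = 0.000157). Fdft1, squalene synthase, was raised by Foxl2 siRNA to 443, 390 and 320 CPM against 226, 225 and 226 CPM (log2 0.77 ± 0.18, edgeR adjusted p = 0.00892).

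Of 59 cell cycle genes, 0 were higher and 8 lower with Foxl2 siRNA (13.6%, near the 9.34% of all genes), with a median log2 difference of -0.26. By sign alone, 52 differences were negative and 7 positive. Against scrambled siRNA, Foxl2 siRNA had 2 called lower and 1 higher at 30 h. At 54 h it had 51 lower and 4 higher, beside 20.3% and 18.5% of all genes. Ccne1, cyclin E1, stood at 10.9, 8.67 and 11.1 CPM against 18.1, 15.6 and 17.1 CPM with Esr2 siRNA (log2 -0.73 ± 0.12, edgeR adjusted p = 0.00107). E2f2, which drives S-phase genes, was lower by -0.59 ± 0.13 (edgeR adjusted p = 0.00624). Leaving out an Esr2 siRNA library gave 2 (replicate 1), 5 (replicate 2) or 4 (replicate 3) lower members, and leaving out a Foxl2 siRNA library 4 (replicate 1), 3 (replicate 2) or 18 (replicate 3). Of 49 cell cycle inhibitors, p53 targets and apoptosis genes, 13 were higher (26.5%, beside 11.1% of all genes) and 4 lower (8.16%). Gadd45g, a growth arrest gene, stood at 72.8, 99.4 and 69.0 CPM against 29.8, 31.6 and 27.3 CPM (log2 1.44 ± 0.17, edgeR adjusted p = 0.000102). Cdkn2c, a CDK inhibitor, was lower by -0.71 ± 0.13. Of 40 genes of the unfolded protein and integrated stress response, 3 were higher (7.5%, beside 11.1% of all genes) and 5 lower (12.5%, near the 9.34% of all genes). Slc3a2, the heavy chain of amino acid transporters, stood at 143, 139 and 180 CPM against 326, 386 and 292 CPM (log2 -1.12 ± 0.12, edgeR adjusted p = 5.05e-05). Nupr1, a stress-induced nuclear protein, was lower by -2.12 ± 0.41. The remaining lists are given beside the same 11.1% and 9.34% of all genes. DNA repair had 4 higher and 6 lower of 55 (7.27% and 10.9%), with 1 higher without Esr2 siRNA replicate 1 or 3 and 2 lower without Foxl2 siRNA replicate 2. Glycolysis and hypoxia had 4 and 3 of 37 (10.8% and 8.11%), with 2 higher without Esr2 siRNA replicate 1. Cytokines and chemokines had 3 and 4 of 33 (9.09% and 12.1%), with 1 higher without Esr2 siRNA replicate 1 and 2 lower without Esr2 siRNA replicate 3. Immediate early genes had 5 and 3 of 35 (14.3% and 8.57%). Their higher count was 3 without Esr2 siRNA replicate 1 or 3 or Foxl2 siRNA replicate 1, and their lower count 1 without Esr2 siRNA replicate 2 or Foxl2 siRNA replicate 1.

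**Figure D5:**
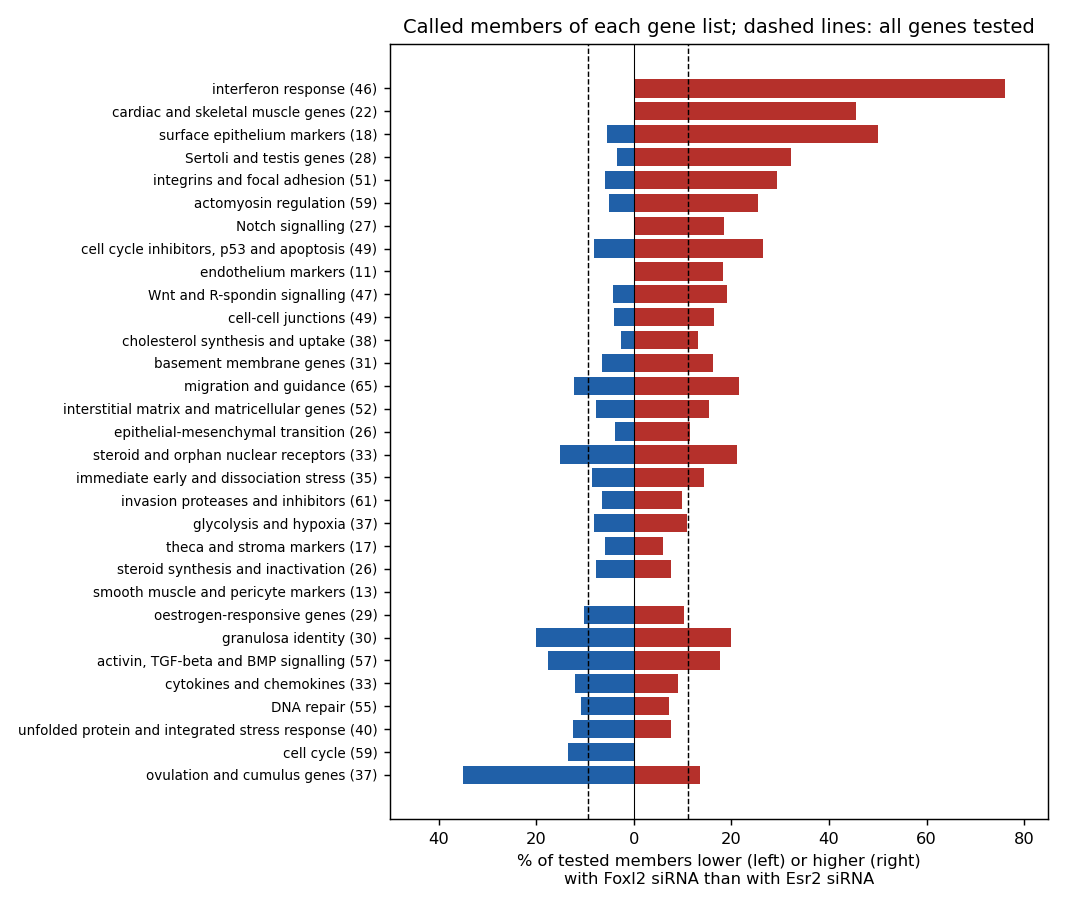
Share of tested members called higher (right, red) or lower (left, blue) with Foxl2 siRNA than with Esr2 siRNA for the 31 lists with at least 10 tested members, numbers tested in brackets; dashed lines are the shares of all genes, 11.1% and 9.34%. The interferon response has the longest bar to the right (35 of 46) and the ovulation and cumulus genes the longest to the left (13 of 37).

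Motifs of FOXL2 and ESR2 were counted in the 250 bases before the start, on both strands, of 11661 tested genes with a window. The forkhead letters TGTTTAC were present in 23 of 491 Foxl2 side genes lower with Foxl2 siRNA (4.68%), in 11 of 481 Foxl2 side genes higher (2.29%) and in 314 of all genes (2.69%), and TGTTTGC in 4.28%, 5.61% and 3.78%. The oestrogen response element, GGTCA and TGACC with 3 bases between them, was in none of the 11661 windows, and the single arm AGGTCA was in 29 of 209 Esr2 side genes lowered by Esr2 siRNA (13.9%), in 9 of 63 raised (14.3%) and in 13.1% of all genes. These shares carry no test, and the absence of letters in so short a window says nothing about the factor.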

How the data were processed

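The authors deposited 1 table of raw read counts by gene for each of 15 libraries. Tools listed in the submitters' processing notes are TopHat2, bcl2fastq 2.15.0 and DESeq2, with the build mm10. For the counting program, annotation and strand setting, the entry is: not given in the sources used here. The 92 ERCC rows were left out, and 15 symbols turned into dates in 1 scrambled library were restored from the gene order of the other 14. All 15 libraries entered 1 fit of 5 group means in edgeR 4.0.16 (R 4.3.3) with TMM scaling, its expression filter and its two-sided quasi-likelihood test (10 residual degrees of freedom); genes were called at a Benjamini-Hochberg adjusted p under 0.05 over 14907 genes. The fit was also run on simulated counts with 1 dispersion (0.022) for every gene and no effects of single libraries. These settings are simpler than the data, so that run gives no error rate for the calls here. Standard errors come from the F statistic.

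Alternatives were other scalings and filters, DESeq2 1.42.0, voom of limma 3.58.1, smaller sets of libraries, a replicate block and leaving out each library. Named genes were a panel of 28, the 10 most changed in each direction with a mean of at least 5 CPM and no overlap between the groups, 10 in each direction on the Esr2 side, 5 in each smaller class and up to 4 per list. Members and all 34 lists were chosen with earlier results of these data known; the interferon motif, the neighbouring-gene regions and 52 further genes were chosen after values were seen. Positions are from GENCODE M21 (mm10) and promoter letters from RefSeq (GRCm38.p6).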

Additional observations from a re-analysis of the deposited data

How the results depend on the processing

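No call of a named gene between the knockdowns changed direction under the 15 alternatives run. The 3042 genes that differed between the knockdowns became 5446 with voom and quality weights (2769 higher, 2677 lower) and 1625 with only the 6 libraries compared (935 higher, 690 lower), and 1568 of those 1625 were among the 3042. Leaving out 1 library gave 1767 to 3647 genes (974 to 1816 higher, 793 to 1831 lower). Foxl2 siRNA against scrambled called 5252 with voom and 898 to 3016 without 1 library; Esr2 siRNA against scrambled called 1097 with DESeq2, 4731 with voom and 238 to 1030 without 1 library. The Foxl2 side held 2398 genes with voom, 356 at 2-fold or more and 687 to 1917 without 1 library; the Esr2 side held 517 with DESeq2, 1505 with voom, 69 at 2-fold or more and 134 to 611 without 1 library. Apart from the fold limit, which can only remove genes, the cause of these changes was not tested. Of 158 named calls, 16 were lost without Esr2 siRNA replicate 1, 14 without Esr2 siRNA replicate 3 and 12 without Foxl2 siRNA replicate 1, and 12 with only the 6 libraries.

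Same-numbered libraries of the knockdowns did not deviate together (r = -0.0785, -0.347 and 0.0391 across genes, which are not independent). With 3 libraries per group the deviations sum to 0, so these values cannot decide if the numbers pair the libraries. Under different numbers, r was 0.391 for Foxl2 siRNA replicate 1 with Esr2 siRNA replicate 2. With Esr2 siRNA replicate 3 it was 0.432 for Foxl2 siRNA replicate 2 and -0.452 for Foxl2 siRNA replicate 1. A block on the replicate number does not take up variation shared under different numbers. With the replicate number as a block, 3012 genes differed, 2811 of them shared with the main fit, and 1 named call, that of Grem1, was lost.

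With 3 libraries per group a permutation test cannot go below p = 0.1, and genes near 3 counts, such as Cst9 or AI593442, have folds that depth limits.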
